A study of Mus musculus with 15 samples.

Results

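The subject is a pair of mouse microRNAs, miR-210-3p and miR-378a-3p, which are 2 of the 733 miRNA arms (distinct mature strands) that had at least 1 read in these libraries. A read was given to an arm when the insert was 18 to 26 bases long and its first 18 bases were those of the arm. Small RNA was sequenced from 15 libraries, 3 in each of 5 groups, and the series' design text names miRNAs that regulate PgR as its question. The MM3MG group is a line of normal mammary epithelium from the BALB/c strain. MM3MG-Her2 is MM3MG transduced with retroviral particles that carry pLSXN-Neu. TUBO cells are a breast cancer line that came from primary tumours of Balb-NeuT animals. TUBO exosomes were extracted from the culture supernatant of TUBO cells, and TUBO supernatant is what was left after that isolation. Every culture was kept in DMEM with 10% FCS, and the labels name no treatment and no change of oxygen. The labels do not say whether the 3 replicates of a group were separate cultures, so the p-values measure only the spread between these libraries, which may be technical.

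miR-210 is a microRNA that low oxygen regularly induces: HIF, the transcription factor that is stabilised when oxygen falls, acts on its gene, and its known targets include the iron-sulphur cluster scaffold ISCU and other parts of mitochondrial respiration. miR-378a is made from an intron of Ppargc1b, the gene of the coactivator PGC-1β, which raises mitochondrial gene expression. Its 2 strands are known as regulators of lipid and oxidative metabolism, and the 5p strand has been described downstream of ERBB2 (Her2, or Neu in the rat) in breast cancer cells.

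The hairpin Mir210 lies on the minus strand of GRCm38 at chr7:141221384-141221493, and no other gene of the GENCODE M21 annotation overlaps it. The RefSeq arms of Mir210 (GRCm38.p6) are shown because the results on 3′ ends turn on the last base of the 3p arm, and the capitals mark the seed, bases 2 to 8, which pairs with target mRNAs. The 3p arm is at chr7:141221407-141221428 and the 5p arm at chr7:141221445-141221466.
miR-210-3p: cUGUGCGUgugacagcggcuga
miR-210-5p: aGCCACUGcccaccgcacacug
The inserts that made up most of the miR-210-3p reads shared their first 21 bases and differed in what followed, which is in capitals here. The hairpin continues with A and then U.
ends in U in place of the hairpin's A: cugugcgugugacagcggcugU
22 bases as in the hairpin: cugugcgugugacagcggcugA
23 bases as in the hairpin: cugugcgugugacagcggcugAU
21 bases as in the hairpin: cugugcgugugacagcggcug
Over all 15 libraries the insert that ends in U had 8098 reads, 37.5% of the miR-210-3p reads without an uncalled base. The 22-base hairpin form had 6514 reads (30.2%), the 23-base form 1771 (8.21%) and the 21-base form 1720 (7.98%). Over the pooled libraries the most frequent form was thus not the RefSeq strand, but in all 3 exosome libraries the RefSeq strand was the more frequent of the first 2 forms.

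Depth differed between the groups. The libraries held 196152 to 710902 reads, of which 56679 to 521154 were assigned to miRNA arms. The share of reads that were miRNA was 73.8% ± 0.469 (SD, n = 3) in TUBO cells, 71.7% ± 3.36 in MM3MG, 57% ± 1.57 in TUBO exosomes, 49.5% ± 2.31 in MM3MG-Her2 and 29.4% ± 2.42 in TUBO supernatant. Levels are given as CPM, counts scaled to 1e6 miRNA reads of the library. Replicate 3 stood apart from replicates 1 and 2 in TUBO exosomes and in TUBO supernatant: a chi-square statistic per degree of freedom, which is near 1 for sampling noise alone, was 90.2 and 89.9 between it and the others in exosomes against 15.4 between replicates 1 and 2, and 41.5 and 38.2 in supernatant against 5.11. The levels of both miRNAs and their main shares of 3′ ends are therefore given by library for these groups.

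miR-210-3p was lowest in MM3MG and highest in TUBO exosomes. In MM3MG it stood at 1514, 1349 and 1467 CPM in replicates 1, 2 and 3. In MM3MG-Her2 it stood at 3214, 2847 and 2671 CPM. In TUBO cells it stood at 4413, 5049 and 4822 CPM. These 3 groups of cells did not overlap. Of 260 arms tested, 65.8% did not overlap between MM3MG-Her2 and MM3MG, 82.3% between TUBO cells and MM3MG, and 79.6% between TUBO cells and MM3MG-Her2, so this was common. TUBO exosomes held 15493, 15092 and 6074 CPM. TUBO supernatant held 8505, 8557 and 1855 CPM. In both fractions of the medium, replicate 3 was far below the others. All 3 exosome libraries were above all TUBO cell libraries, whereas supernatant replicate 3 was below them, so the order of the group means from TUBO cells (4761 ± 323 CPM, SD, n = 3) to supernatant (6305 ± 3855) to exosomes (12219 ± 5326) had overlapping neighbours at each of those steps that include the supernatant. The means of MM3MG and MM3MG-Her2 were 1444 ± 85.2 and 2911 ± 277 CPM. By rank of the group mean, miR-210-3p was number 57 of all arms for MM3MG, 40 for MM3MG-Her2, 34 for TUBO cells, 23 for exosomes and 21 for supernatant. In such bulk libraries fewer cells with a miRNA and less of it per cell cannot be told apart.

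miR-378a-3p had another order, with its highest level in MM3MG-Her2. In MM3MG it stood at 6435, 5876 and 6685 CPM. In MM3MG-Her2 it stood at 12634, 12895 and 12429 CPM. In TUBO cells it stood at 8135, 8390 and 8462 CPM. Again the 3 groups of cells did not overlap. TUBO exosomes held 6680, 6522 and 7010 CPM, and here replicate 3 was not low. TUBO supernatant held 6612, 6210 and 3897 CPM, with replicate 3 below the others. From the lowest group mean up, the order was supernatant (5573 ± 1465 CPM), MM3MG (6332 ± 414), exosomes (6737 ± 249), TUBO cells (8329 ± 172) and MM3MG-Her2 (12653 ± 233). The first 3 of these overlapped with their neighbours, and the last 2 stood apart from the group below them. CPM depends on what else was in the library: scaled to 1e6 reads of any kind in place of miRNA reads, miR-378a-3p stood at 4539 ± 358 in MM3MG, 6270 ± 385 in MM3MG-Her2 and 6147 ± 93.4 in TUBO cells, so that on this scale the last 2 groups were close.

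**Figure D1:**
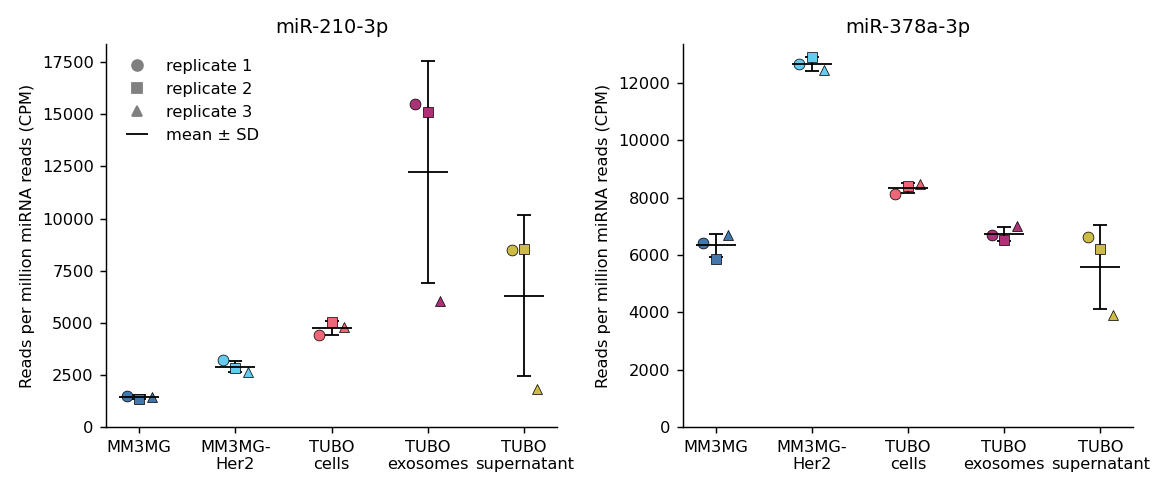
Level of miR-210-3p (left) and miR-378a-3p (right) in each of the 15 libraries, in CPM on a linear axis from 0, with the symbol showing the replicate number and the bars the mean and SD of 3 libraries. miR-210-3p steps up over the 3 groups of cells and is widely spread in exosomes (6074 to 15493 CPM), while miR-378a-3p peaks in MM3MG-Her2 (12429 to 12895 CPM).

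The ratio of both miRNAs within a library needs no scaling between libraries. On the log2 scale, miR-378a-3p over miR-210-3p was 2.13 ± 0.05 in MM3MG (SD, n = 3) and 2.12 ± 0.13 in MM3MG-Her2, and the libraries of these groups interleaved. The difference was -0.01 (exact two-sided permutation test, p = 0.9). When only inserts wholly in the hairpin were counted, this difference was -0.53 (exact permutation test, p = 0.1). In TUBO cells the log2 ratio was 0.81 ± 0.07, and every TUBO library was below every MM3MG and MM3MG-Her2 library. The differences were -1.32 from MM3MG and -1.31 from MM3MG-Her2 (exact permutation test, p = 0.1 for each, which is the smallest p that 3 libraries against 3 can give). Exosome replicates 1 and 2 had a log2 ratio of -1.21 each and replicate 3 of 0.21, all below the TUBO cells, with a mean difference of -1.55 (exact permutation test, p = 0.1). Supernatant replicates stood at -0.36, -0.46 and 1.07, on both sides of the TUBO cells (difference -0.73, exact permutation p = 0.4) and overlapping the exosomes (exosomes minus supernatant -0.82, exact permutation p = 0.3). At each replicate number the exosome value was below the supernatant value, but the labels do not pair these libraries and the test did not. In numbers of reads, there were 4.25 to 4.56 miR-378a-3p reads per miR-210-3p read in MM3MG, 1.66 to 1.84 in TUBO cells and 0.431 to 1.15 in exosomes. The ratio was compared 6 times, and none of these tests can pass 0.05 at this number of libraries.

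**Figure D2:**
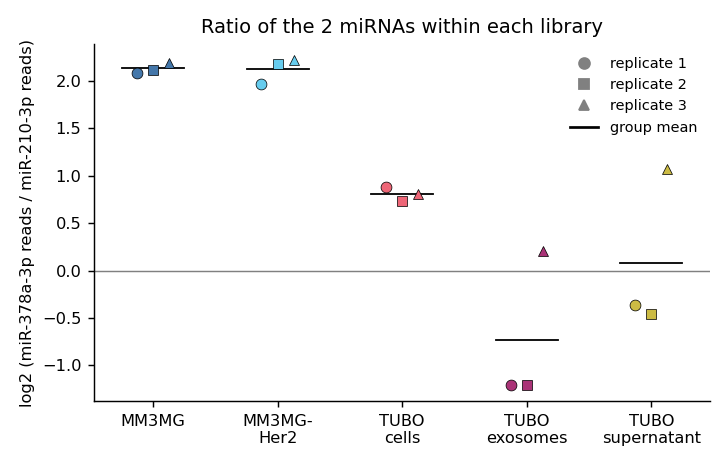
log2 of miR-378a-3p reads over miR-210-3p reads in each library, with lines at the group means and symbols for the replicate number. MM3MG and MM3MG-Her2 lie together near 2.13 and 2.12, TUBO cells lie near 0.81, and replicate 3 lies above the other libraries in exosomes (0.21) and in supernatant (1.07).

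Both miRNAs were higher in MM3MG-Her2 than in MM3MG, by about the same amount when all inserts were counted. In edgeR's quasi-likelihood test with Benjamini-Hochberg adjustment over all arms, the log2 fold change was 0.92 ± 0.13 (SE, adjusted p = 5.1e-07) for miR-210-3p and 0.91 ± 0.11 (adjusted p = 5.7e-08) for miR-378a-3p. The CPM ratios were 2.02 and 2. When only inserts wholly in the hairpin were counted, the log2 values were 1.46 for miR-210-3p and 0.91 for miR-378a-3p. Of 260 arms tested in this comparison 155 passed (59.6%), 68 of them higher in MM3MG-Her2 (26.2%). The share of calls that were higher was 43.9%, and 28.3% to 53.7% under other scalings. The size depended on the scaling and on the libraries in the fit. With upper-quartile scaling the log2 values were 1.14 for miR-210-3p and 1.12 for miR-378a-3p. Scaled to all reads of 18 to 26 bases they were 0.53 and 0.52. Without MM3MG replicate 1, MM3MG replicate 3, MM3MG-Her2 replicate 1 or MM3MG-Her2 replicate 3, miR-210-3p fell to 0.50, 0.45, 0.37 and 0.43. miR-378a-3p then fell to 0.46, 0.46, 0.44 and 0.37, and both were still past the threshold. With all 15 libraries in one fit miR-210-3p was 0.62 and no longer passed (edgeR, adjusted p = 0.177). With each library left out in turn, the median of all arms tested moved too, between -0.63 and 0.00. The distance of miR-210-3p from that median was then 0.95 to 1.08 and that of miR-378a-3p 0.93 to 1.06.

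Between TUBO cells and MM3MG, miR-210-3p was clearly higher in TUBO cells and miR-378a-3p was not distinguished by the test. The log2 fold change of miR-210-3p was 1.34 ± 0.13 (edgeR, adjusted p = 1.3e-10), and its CPM ratio was 3.3. That of miR-378a-3p was 0.01 ± 0.11 (edgeR, adjusted p = 0.91, 95% CI -0.22 to 0.25), although its CPM did not overlap between the groups and had a ratio of 1.32. Of 260 arms, 216 passed (83.1%), 78 higher (30%) and 138 lower, and the median of all arms was -0.53. Relative to that median miR-378a-3p stood at 0.55 and miR-210-3p at 1.87. With RLE scaling the median was -0.15, and miR-378a-3p was 0.39 and passed (edgeR, adjusted p = 9.1e-04), so its call against MM3MG rested on the scaling. In no setting tried did miR-210-3p lose its call in this comparison.

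Between TUBO cells and MM3MG-Her2 the members went opposite ways, in a background in which 81.5% of 260 arms passed (212 arms, of which 67 or 25.8% of those tested were higher and 145 or 55.8% lower, with a median of -0.73). miR-210-3p was 0.42 ± 0.13 (edgeR, adjusted p = 0.00412), and miR-378a-3p was -0.89 ± 0.11 (edgeR, adjusted p = 4.0e-08). Against the median of all arms these values were 1.15 and -0.16, so the fall of miR-378a-3p was close to that of the median arm. Scaled to all reads of 18 to 26 bases, where the median was 0.09 and the calls were 53.8% higher against 31.6% with TMM, miR-378a-3p was -0.09 (edgeR, adjusted p = 0.405), and without MM3MG-Her2 replicate 3 it was -0.20 (edgeR, adjusted p = 0.152). It was -0.33, -0.24 and -0.35 without MM3MG replicate 1, MM3MG replicate 3 or MM3MG-Her2 replicate 1. Without those same 4 libraries, in the order MM3MG replicates 1 and 3, then MM3MG-Her2 replicates 1 and 3, miR-210-3p was 0.98, 1.07, 1.04 and 1.07. It no longer passed when only inserts wholly in the hairpin were counted (0.27, edgeR, adjusted p = 0.0788) or with all 15 libraries in one fit (0.50, edgeR, adjusted p = 0.225). These 3 comparisons share libraries, so they are not independent of each other.

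**Figure D3:**
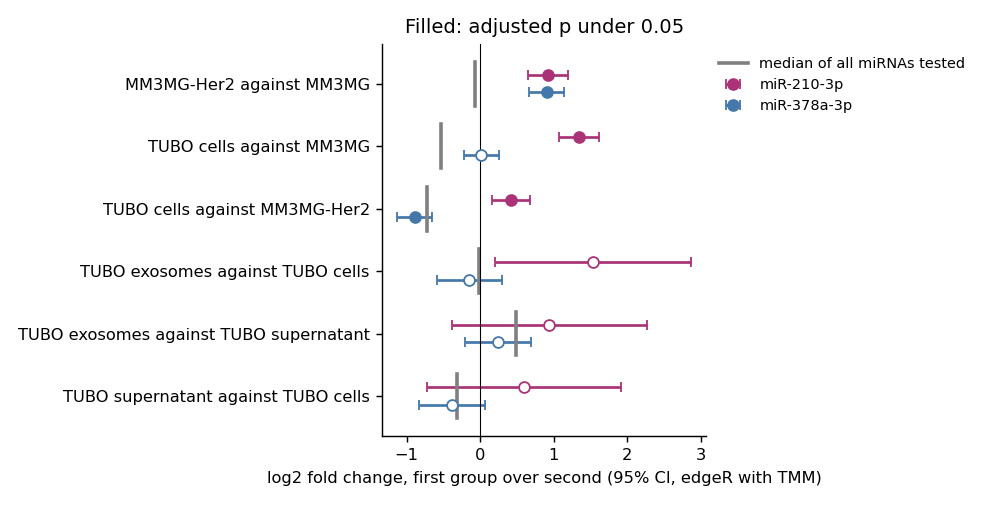
log2 fold change of both miRNAs in the 6 comparisons with 95% confidence intervals from edgeR with TMM scaling, filled where the adjusted p was under 0.05, and a grey bar at the median of all arms tested. miR-210-3p lies to the right of the median in every comparison, and its intervals are widest where exosomes or supernatant enter.

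Among the samples from TUBO cultures, every exosome library held more miR-210-3p than every cell library in CPM, but the difference did not pass the test. The log2 fold change was 1.53 ± 0.57 (edgeR, adjusted p = 0.0709, 95% CI 0.20 to 2.87), with a CPM ratio of 2.57. In this comparison 82 of 221 arms passed (37.1%), and 63.8% of arms did not overlap between the groups. Of the calls 57.3% were higher in exosomes, and 26.6% to 73.8% under other scalings. Without exosome replicate 3 the value was 1.91 (edgeR, adjusted p = 0.0148), and without supernatant replicate 3, which shares the spread in the fit, it was 1.38 (edgeR, adjusted p = 0.00108). It also passed without exosome replicate 1 (1.18), supernatant replicate 1 (1.39), TUBO cell replicate 2 (1.42) or TUBO cell replicate 3 (1.41). miR-378a-3p was -0.15 ± 0.21 (edgeR, adjusted p = 0.593, 95% CI -0.59 to 0.30), against a median of all arms of -0.01.

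Between exosomes and supernatant neither miRNA passed the test. Exosomes minus supernatant was 0.94 ± 0.57 for miR-210-3p (edgeR, adjusted p = 0.184) and 0.24 ± 0.22 for miR-378a-3p (edgeR, adjusted p = 0.349), while 67% of 221 arms passed (58.8% of them higher, and 55.7% to 81% under other scalings) and the median of all arms was 0.49. miR-210-3p passed with DESeq2 (1.03, adjusted p = 0.0423) and when scaled to all reads of 18 to 26 bases (1.75, edgeR, adjusted p = 0.0145). Supernatant minus cells was 0.59 ± 0.57 for miR-210-3p (edgeR, adjusted p = 0.381) and -0.38 ± 0.22 for miR-378a-3p (edgeR, adjusted p = 0.115), while 72.4% of 221 arms passed (46.2% of them higher, and 21.1% to 54.1% under other scalings) and the median was -0.32. Without supernatant replicate 3, miR-210-3p was 0.94 over the cells and passed (edgeR, adjusted p = 0.013). Scaled to all reads of 18 to 26 bases, of which far fewer were miRNA in supernatant, the sign turned to -0.76 (edgeR, adjusted p = 0.216) for miR-210-3p, and miR-378a-3p was -1.77 and passed (edgeR, adjusted p = 6.7e-06). miR-378a-3p also passed with RLE (-0.59), no scaling (-0.58), no low-count filter (-0.53) and DESeq2 (-0.58). Scaled to 1e6 reads of any kind, miR-210-3p stood at 3276, 3730 and 3535 for TUBO cell replicates 1, 2 and 3, at 9036, 8342 and 3487 for exosomes and at 2719, 2473 and 504 for supernatant. On this scale exosome replicate 3 lay among the TUBO cells, and every supernatant library was below them. How much exosome or supernatant RNA one cell released cannot be read from these values.

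Markers of blood were higher in the exosome libraries than in TUBO cells, and in supernatant mainly miR-486-5p was. Summed over 5 markers of blood and serum (miR-451a, miR-486a-5p, miR-144-3p, miR-223-3p and miR-122-5p), the level was 131 to 161 CPM in TUBO cells, 10616 to 25619 in exosomes, where all 5 had reads, and 3140 to 7391 in supernatant, where miR-144-3p and miR-223-3p had none. The sum was 1105 to 1278 CPM in MM3MG and 699 to 840 CPM in MM3MG-Her2, nearly all of it miR-486-5p. miR-486-5p (counted with miR-3107-5p, which shares its first 18 bases), a red cell miRNA, made up most of it, with 9532, 10442 and 24620 CPM in exosome replicates 1, 2 and 3 and 3292, 2999 and 7365 CPM in supernatant replicates 1, 2 and 3. In both fractions replicate 3 was highest in miR-486-5p and lowest in miR-210-3p, but the markers did not share 1 order over the libraries. miR-451a, which defines red cells, had 943, 1178 and 884 CPM in exosome replicates 1, 2 and 3, and miR-144-3p 88.1, 84.5 and 41.9 CPM, so both were lowest in replicate 3, whereas miR-223-3p was highest there at 41.9 CPM against 20.6 and 16.9. In supernatant miR-451a had 2 reads in replicate 1 and none in the others, and it had no read in any TUBO cell, MM3MG or MM3MG-Her2 library. The endothelial markers miR-126a-3p and miR-126a-5p summed to 150 to 290 CPM in exosomes and had no reads in TUBO cells or supernatant. The part of such RNA in the miR-210-3p and miR-378a-3p values of exosomes was not tested. The first 18 bases do not tell the species of a read, and the medium contained FCS.

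The lists of markers bear on the cell labels too. The 7 epithelial markers (the miR-200 family with miR-203-3p and miR-205-5p) summed to 25306 to 26585 CPM in TUBO cells, to 21.2 to 32.7 CPM in MM3MG and to 12.1 to 41.8 CPM in MM3MG-Her2, where miR-203-3p and miR-205-5p had no reads. The 6 stromal markers, among them miR-143-3p and miR-199a-3p, summed to 171445 to 191515 CPM in MM3MG, 95863 to 100056 in MM3MG-Her2 and 48377 to 48536 in TUBO cells, where miR-214-3p had none. The sum in TUBO cells was nearly all miR-143-3p, at 48174 ± 42 CPM (SD), so the other stromal markers were low there. miR-143-3p was 110869 ± 19394 CPM in MM3MG and 64708 ± 2374 CPM in MM3MG-Her2. The epithelial markers were thus near 0 in the line that is labelled as mammary epithelium. The part of this difference in the comparisons of miR-210-3p and miR-378a-3p between TUBO and the other lines was not tested.

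The 3′ end of miR-210-3p differed between the groups. A read whose bases after the first 18 left the hairpin sequence is called non-templated here. In such a read, a base added to the strand and a changed base cannot be told apart. An added base that matches the hairpin is counted as templated, so templated reads may include strands with added bases. In MM3MG 70.7%, 70.7% and 69.4% of miR-210-3p reads were non-templated in replicates 1, 2 and 3. In MM3MG-Her2 the shares were 55.6%, 57.8% and 56.6%, and in TUBO cells 65.6%, 65.2% and 63.6%. In exosomes they were 37.9%, 37.1% and 44.2%, and in supernatant 53.1%, 48% and 44.9%. No exosome library reached the lowest library of any group of cells or of supernatant, though exosome replicate 3 (95% Wilson interval 41.8% to 46.5%, from 1714 reads) lay close to supernatant replicate 3 (36.9% to 53.3%, from 138 reads). Such intervals cover counting error only. Each of the 6 comparisons of this share had groups that did not overlap, and each had an exact permutation p of 0.1, the smallest possible. In how many other arms this share did not overlap was not counted. In the log2 odds given below, miR-210-3p was close to the median arm for supernatant against TUBO cells and TUBO cells against MM3MG.

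The forms behind this were the hairpin strand of 22 bases and the insert that ends in U, both printed above. The 21-base hairpin form with an A added has the same sequence as the 22-base hairpin form. The part of such reads in the 22-base hairpin form was not tested. The 22-base hairpin form was 17.1% ± 1.21 of miR-210-3p reads in TUBO cells (SD, n = 3), 42.9%, 43% and 37.1% in exosome replicates 1, 2 and 3, and 26.8%, 18.2% and 23.2% in supernatant. The insert with 21 hairpin bases and then U was 46.4% ± 0.576 in TUBO cells and 28.2%, 25.7% and 34.2% in exosomes. It was 50.8%, 44.5% and 44.2% for supernatant, 45.8% ± 3.27 for MM3MG and 45.3% ± 1.28 for MM3MG-Her2. The highest exosome library for the form that ends in U (34.2%) was below the lowest library of every other group, which was 42.1% in MM3MG. MM3MG-Her2 differed from MM3MG in other ends: reads with 2 or more non-templated bases were 8.54% ± 0.521 of the total against 20.2% ± 3.57, and the 22-base hairpin form was 28.4% ± 2.11 against 13% ± 1.42. Supernatant held few long ends, with 1.94%, 2.69% and 0% of reads having 2 or more non-templated bases, and more of the 21-base hairpin form, 14.2%, 20.1% and 19.6% against 5.48% ± 0.287 in TUBO cells. Supernatant was also the group with the most short inserts, with 28.9% ± 4.7 of its reads at 20 bases or less against 10.1% ± 0.277 in TUBO cells. Split by end, templated miR-210-3p was 1646 ± 133 CPM in TUBO cells and 9535, 9373 and 3344 CPM in exosome replicates 1, 2 and 3. Non-templated miR-210-3p was 3029 ± 199 CPM in TUBO cells and 5810, 5529 and 2645 CPM in exosomes, so replicate 3 was above the cells in the templated form and not in the non-templated form. When only inserts that lie wholly in the hairpin were counted, the exosome against cell difference of miR-210-3p was 2.29 and passed (edgeR, adjusted p = 0.0078).

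**Figure D4:**
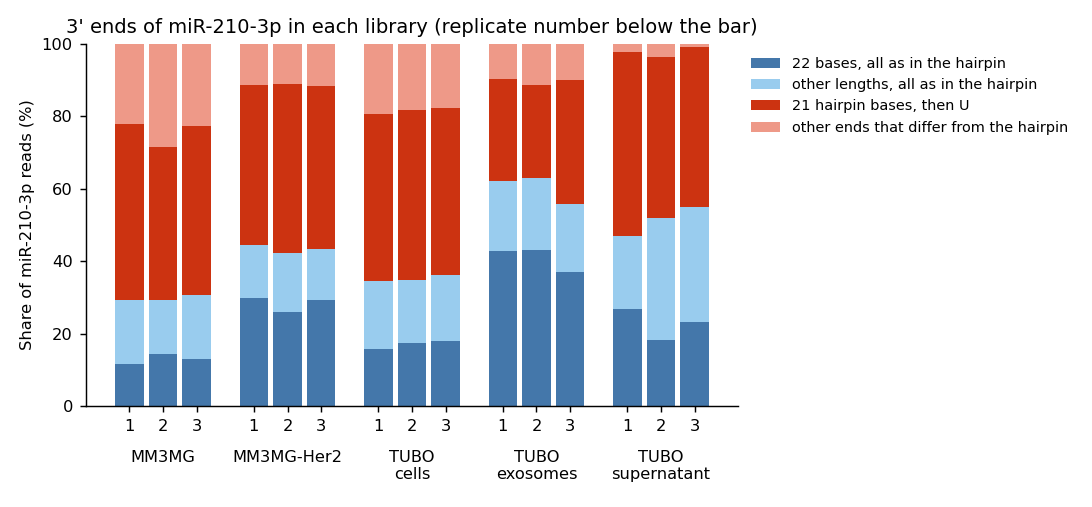
Share of miR-210-3p reads in each library by the kind of 3′ end, in percent, with blue for ends as in the hairpin and red for ends that differ from it. The blue part is largest in exosomes, where the 22-base hairpin form is 37.1% to 43% of reads, and smallest in MM3MG, where that form is 11.6% to 14.4%.

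The median miRNA did not show this difference between exosomes and cells, but such a fall was not limited to miR-210-3p. The non-templated share of miR-200c-3p was 33.4% in TUBO cells and 15.4% in exosomes (means of 3 libraries). A limma fit, added after the data were seen, compared log2 odds of non-templated reads over all arms with at least 50 reads in each library of the fit. For exosomes against TUBO cells it gave -1.48 ± 0.18 for miR-210-3p (adjusted p = 3.5e-04), the lowest of 53 arms, of which 7 passed (13.2%) and whose median was 0.02. Without any 1 library the value lay between -1.62 and -1.41, with adjusted p of at most 0.0039. For supernatant against TUBO cells it was -0.96 ± 0.18 (limma, adjusted p = 0.00124), the same as the median arm at -0.96, and 71.7% of 53 arms passed. For exosomes against supernatant it was -0.53 ± 0.18 (limma, adjusted p = 0.0261), where 58.5% of 53 arms passed and the median arm was 0.86; without exosome replicate 1, exosome replicate 2 or supernatant replicate 1 it no longer passed (limma, adjusted p = 0.0856, 0.1 and 0.0713).

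Among the cells, the limma difference of miR-210-3p was -0.85 ± 0.08 for MM3MG-Her2 against MM3MG (adjusted p = 2.8e-04), where 36.1% of 83 arms passed and the median was -0.19. It was -0.36 ± 0.08 for TUBO cells against MM3MG (limma, adjusted p = 0.00464), next to a median of -0.37 and 56.6% of 83 arms called. It was 0.50 ± 0.08 for TUBO cells against MM3MG-Her2 (limma, adjusted p = 9.7e-04), where 50.6% of 83 arms passed and the median was -0.19. In level, too, miR-210-3p stood out: among 43 arms with at least 50 reads in all 15 libraries, the median share of non-templated reads was 10.7% in TUBO cells and 11.4% in exosomes, and no arm in MM3MG or TUBO cells had a higher share than miR-210-3p, while 1 arm did in MM3MG-Her2 and 3 did in each of exosomes and supernatant.

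The 3′ ends of miR-378a-3p varied less. Its non-templated share was 26.9%, 26% and 26.7% in MM3MG, 24.6%, 25.7% and 23.4% in MM3MG-Her2, and 24.4%, 22.3% and 22.5% in TUBO cells. It was 23.1%, 23.4% and 24.9% in exosomes and 27.6%, 22.3% and 38.8% in supernatant, where only replicate 3 stood out, with 289 reads. The limma difference between exosomes and TUBO cells was 0.06 ± 0.26 (adjusted p = 0.953). The one comparison in which it passed was TUBO cells against MM3MG, at -0.27 ± 0.08 (limma, adjusted p = 0.0253), and it no longer passed without MM3MG replicate 1, MM3MG replicate 3, TUBO cell replicate 2 or TUBO cell replicate 3 (limma, adjusted p = 0.059, 0.0576, 0.083 and 0.0737). The kind of base counted as non-templated differed from miR-210-3p. In TUBO cells, ends of A alone were 12.6% ± 1.2 of miR-378a-3p reads and ends of U alone 5.61% ± 0.201. For miR-210-3p they were 1.44% ± 0.319 and 50.7% ± 0.59. The hairpin sequence bears on this contrast. Where the miR-210-3p hairpin continues with A, an added A is counted as an end as in the hairpin. How much of the contrast comes from this was not tested.

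**Figure D5:**
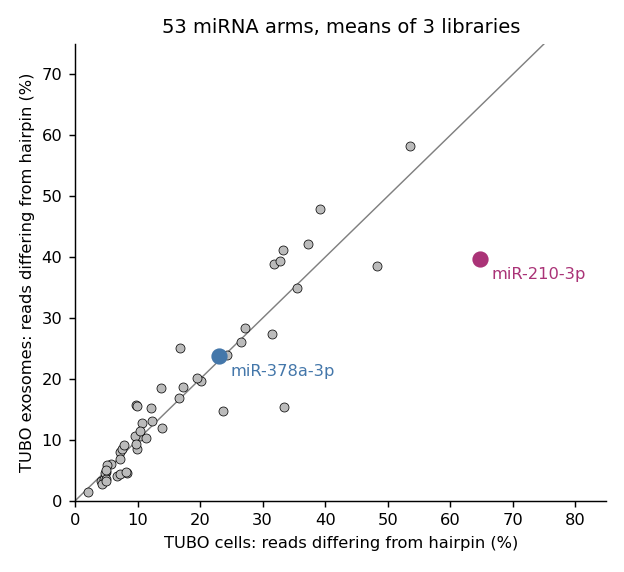
Percentage of reads whose 3′ end differs from the hairpin in TUBO cells (x axis) and exosomes (y axis) for the 53 arms of the limma fit, as means of 3 libraries, with a line of equality. miR-210-3p lies far under the line (64.8% in cells, 39.7% in exosomes), and miR-378a-3p lies on it (23.1% and 23.8%). One of the grey points, miR-200c-3p, also lies far under the line (33.4% in cells, 15.4% in exosomes).

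The passenger strands were rare. Summed over the 3 libraries of MM3MG, MM3MG-Her2, TUBO cells, exosomes and supernatant in turn, miR-210-5p had 8, 45, 71, 43 and 23 reads and miR-378a-5p 17, 27, 38, 13 and 11. In MM3MG, miR-210-5p had no read in replicate 1 and 10.6 and 8.93 CPM in replicates 2 and 3. In MM3MG-Her2 it had 50, 92.9 and 65.7 CPM, above every MM3MG library, and the log2 difference was 3.12 ± 0.54 (edgeR, adjusted p = 1.1e-05). Of all arms tested there, 59.6% passed and 65.8% did not overlap. As a share of the reads of both strands, the 5p strand of miR-210 was 0.462% ± 0.41 in MM3MG, 2.36% ± 0.814 in MM3MG-Her2 and 1.03% ± 0.377 in TUBO cells (SD, n = 3). These shares rest on 3 to 23 reads of the 5p strand in each MM3MG or MM3MG-Her2 library that had any, and their difference was not tested. In TUBO cells miR-210-5p had 45.3, 33.5 and 69.1 CPM, a log2 difference of 2.34 ± 0.53 from MM3MG (edgeR, adjusted p = 1.8e-04), where 83.1% of arms passed. In supernatant, miR-210-5p was 1.38 ± 0.47 above TUBO cells (edgeR, adjusted p = 0.0132), also on few reads, where 72.4% of arms passed. It passed as lower in TUBO cells against MM3MG-Her2 (-0.78 ± 0.36, edgeR, adjusted p = 0.0498), where 81.5% of arms passed. Against supernatant it was lower in exosomes (-1.22 ± 0.49, edgeR, adjusted p = 0.0312), where 67% passed. In both of these comparisons the 3p strand had the opposite sign, at 0.42 and 0.94, and the second of these did not pass. miR-378a-5p, the strand described downstream of ERBB2, stood at 28.2, 12.7 and 8.93 CPM in MM3MG and at 45.5, 44.4 and 35.9 CPM in MM3MG-Her2, with no overlap and a log2 difference of 1.32 ± 0.47 (edgeR, adjusted p = 0.0165). This rests on 3 to 11 reads in each library, and 59.6% of all arms passed and 65.8% did not overlap there. In TUBO cells miR-378a-5p stood at 26.8, 28.3 and 26.9 CPM, and its difference from MM3MG was 0.40 ± 0.45 (edgeR, adjusted p = 0.404). Against MM3MG-Her2 it passed as lower in TUBO cells (-0.93 ± 0.41, edgeR, adjusted p = 0.0394). There 81.5% of arms passed and the median arm was -0.73.

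The hairpin Mir378a lies in an intron of Ppargc1b, on the same strand as that gene, in GENCODE M21, which places another hairpin model, Gm25301, across it on the opposite strand. Relatives of miR-378a-3p could have taken or given reads. miR-378c has the same first 18 bases, so its reads cannot be counted apart, but of 33451 reads with these bases 29705 (88.8%) carried the miR-378a-3p base at position 21, 9 (0.0269%) that of miR-378c, and 3437 (10.3%) ended before it. miR-378b had 1739 reads, of which 1674 (96.3%) carried the base that would make them miR-378a-3p starting 1 base later, and 5 carried that of miR-378b. The reads under miR-378b are therefore almost all a form of miR-378a-3p. They were 414 ± 20.4 CPM in MM3MG and 482 ± 44.8 in MM3MG-Her2, where miR-378a-3p itself was 2-fold higher, and their log2 difference was 0.12 ± 0.16 (edgeR, adjusted p = 0.524). miR-378d had 0 reads in supernatant, which allows up to 14.7 CPM, and 1 to 7 reads in each other group. For miR-210-3p, 92.1% of reads started at the first base of the arm, 6.56% a base earlier and 1.29% a base later.

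A pair of lists gives the setting, one of miRNAs linked to hypoxia by earlier work (14 names, 12 arms with reads) and one of metabolic miRNAs (16 names, 13 arms with reads). Both were written with earlier results of these data known, and they include the 5p strands and relatives of the members. The members are left out of the counts, but the reads under miR-378b, almost all a form of miR-378a-3p, are in the metabolic list. They passed as lower in TUBO cells against MM3MG (-0.55 ± 0.15, edgeR, adjusted p = 0.00177), close to the median of all arms, -0.53. They also passed as lower in TUBO cells against MM3MG-Her2 (-0.67 ± 0.16, edgeR, adjusted p = 3.6e-04), where that median was -0.73. In supernatant against TUBO cells they passed as higher (0.83 ± 0.25, edgeR, adjusted p = 0.00591). In MM3MG-Her2 against MM3MG, of 12 hypoxia-linked arms 3 passed as higher and 8 as lower, with a median of -0.91 beside -0.07 over all arms, of which 59.6% passed and 26.2% were higher. In this comparison miR-210-3p was higher and most of the list was lower. The list holds miRNAs reported as induced by low oxygen and miRNAs reported to act on HIF-1, so its arms need not share 1 direction. Of its lower arms, miR-181a-5p was 17930 ± 697 CPM in MM3MG-Her2 and 40893 ± 5574 in MM3MG, a log2 difference of -1.28 ± 0.11 (edgeR, adjusted p = 3.8e-11). miR-26a-5p was -1.18 ± 0.12 (edgeR, adjusted p = 1.6e-09). In TUBO cells against MM3MG, 6 of 12 passed as higher and 5 as lower, with a median of 0.05 beside -0.53 over all arms, of which 83.1% passed. miR-27a-3p and miR-27b-3p, which share their first 18 bases, were 22401 ± 773 and 6203 ± 588 CPM (1.47 ± 0.12, edgeR, adjusted p = 3.0e-12), and miR-26a-5p was -2.07 ± 0.13 (edgeR, adjusted p = 2.7e-15). In exosomes against TUBO cells, 1 of 11 passed as higher and 1 as lower, with a median of -0.03 beside -0.01 over all arms, of which 37.1% passed. miR-181a-5p, with 54125 ± 10918 CPM in exosomes and 42326 ± 1448 in cells, was at 0.52 ± 0.23 (edgeR, adjusted p = 0.0753). In TUBO cells against MM3MG-Her2, 6 of 12 passed as higher and 5 as lower. The median was 0.54 beside -0.73 over all arms, of which 81.5% passed. For exosomes against supernatant, 5 of 11 were higher and 2 lower, with a median of 1.34 beside 0.49 (67% passed). For supernatant against TUBO cells, 1 of 11 was higher and 6 lower, with a median of -1.60 beside -0.32 (72.4% passed).

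Of the metabolic list, 6 arms were tested between the cells. In MM3MG-Her2 against MM3MG 1 was higher (miR-378a-5p) and 3 lower, with a median of -0.82 beside -0.07 over all arms (59.6% passed), and miR-378a-3p moved opposite to miR-143-3p (-0.87 ± 0.12, edgeR, adjusted p = 1.2e-07) and miR-29a-3p (-1.06 ± 0.12, edgeR, adjusted p = 7.2e-09). In TUBO cells against MM3MG 1 was higher and 3 lower, with a median of -0.32 beside -0.53 over all arms (83.1% passed), and with miR-29a-3p, a repressor of collagen mRNAs, at -2.57 ± 0.13 (edgeR, adjusted p = 1.2e-17). In exosomes against TUBO cells 1 of 8 was higher and 1 lower, with a median of 0.18 beside -0.01 (37.1% passed); the lower was miR-29a-3p, at -0.89 ± 0.22 (edgeR, adjusted p = 0.00274). In supernatant against TUBO cells 3 of 8 were higher, the miR-378b reads among them, and 4 lower, with a median of -0.19 beside -0.32 (72.4% passed). There miR-103-3p and miR-107-3p, counted together and known for insulin sensitivity, were at -1.65 ± 0.23 (edgeR, adjusted p = 1.4e-06).

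The arms most like each member were sought by Pearson's r of log2 (CPM + 10) over the 15 libraries, among 156 arms with a mean of at least 100 CPM. The points share libraries and groups, so r is a description. For miR-210-3p these were miR-30a-3p (r = 0.85), miR-203-3p (0.82), miR-30a-5p (0.77), miR-429-3p (0.76) and miR-200c-3p (0.76). All 5 had a lower mean in MM3MG than in TUBO cells, as with miR-30a-3p at 206 and 2566 CPM. For miR-378a-3p they were miR-92a-1-5p (0.87), miR-148a-5p (0.86), miR-20a-5p (0.86), miR-7a-5p (0.85) and miR-18a-5p (0.79). These had their highest group mean in MM3MG-Her2, as with miR-20a-5p at 4066 CPM there and 824 CPM in MM3MG. miR-210-3p and miR-378a-3p themselves had an r of -0.01.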

How the data were processed

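The authors deposited counts: a library's file names every insert sequence once, beside the number of reads that had it. Per the labels' protocols, RNA was isolated with TRIzol, adapters were ligated to both ends, and the product was amplified by PCR and cut from a gel. The trimming tool, aligner and build were not given in the sources used here. Assignment began afresh: reads were matched by their first 18 bases to RefSeq mature arms (1738) and, where an arm was not in that table, to arms taken from GENCODE M21 hairpins (143), which gave 4187020 of 6892924 reads to 733 arms. Counts were tested with edgeR 4.0.16 (TMM, low-count filter, quasi-likelihood, robust) in 2 fits of 9 libraries each, cells and TUBO samples, adjusted by Benjamini-Hochberg and called under 0.05. The log2 ratio had 0.5 reads added to both counts. Isoform odds used limma 3.58.1 with 0.5 reads added. Alternatives used DESeq2 1.42.0 and other scalings, filters, libraries and match rules. The code was tested on simulated data. Every replicate pair differed by more than sampling noise. Replicate numbers were not taken to pair libraries, since in no comparison did the deviations of all same-numbered libraries correlate above 0.1. Sequencing without molecular identifiers means that reads are not independent molecules. Named miRNAs were the members, their other strands and relatives, the 4 most abundant at most of each list, and the 5 most alike. The members and lists were chosen with earlier results of these data known.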

Additional observations from a re-analysis of the deposited data

How the results depend on the processing

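Each member was recomputed under 126 alternatives over the 6 comparisons, and 104 of these kept direction and side of the threshold for miR-210-3p and 104 for miR-378a-3p. Except where fewer libraries or inserts entered, the cause of a change was not tested. For TUBO cells against MM3MG, miR-378a-3p passed at 0.39 (RLE), 0.29 (upper quartile), 0.40 (no scaling), 0.43 (all reads of 18 to 26 bases), 0.65 (no low-count filter) and 0.39 (DESeq2), and was -0.21 with all 15 libraries in one fit. For TUBO cells against MM3MG-Her2 it no longer passed at -0.09 (all reads), -0.24 (no filter) and, over libraries left out, lay between -0.91 and -0.20, and miR-210-3p no longer passed at 0.50 (all 15 libraries) and 0.27 (whole insert in the hairpin). miR-210-3p was 0.62 and not called for MM3MG-Her2 against MM3MG with all 15 libraries. For exosomes against cells it passed at 1.36 (RLE), 1.74 (upper quartile), 1.36 (DESeq2), 1.32 (all 15 libraries), 1.53 (only the 6 libraries), 2.29 (whole insert in the hairpin) and 1.23 (shifted starts), and lay between 1.18 and 1.91 over libraries left out. miR-378a-3p there was 0.05 (upper quartile), and passed at -0.66 (all reads) and -0.30 (DESeq2). For exosomes against supernatant miR-210-3p passed at 1.75 (all reads) and 1.03 (DESeq2), and miR-378a-3p was 1.10 and called (all reads), -0.05 (only the 6 libraries), -0.07 (inserts of 20 to 24 bases) and -0.02 (shifted starts). For supernatant against cells miR-210-3p was -0.76 (all reads) and lay between 0.32 and 0.94 over libraries left out, and miR-378a-3p passed at -0.59 (RLE), -0.58 (no scaling), -1.77 (all reads), -0.53 (no filter) and -0.58 (DESeq2). The log2 ratio of the members between MM3MG-Her2 and MM3MG, near 0, lay between -0.06 and 0.07 over libraries left out. It was -0.53 when only inserts wholly in the hairpin were counted (exact permutation test, p = 0.1). Over all arms, the calls for exosomes against cells went from 82 to 124 with all reads. The low-read libraries of supernatant limit its isoform shares.

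With the replicate number as a block, which the labels do not give as a pairing, miR-210-3p passed at 1.31 for exosomes against cells (edgeR, adjusted p = 1.2e-04) and 1.01 for exosomes against supernatant (edgeR, adjusted p = 0.0012), and no other call of a member changed. Correlations of deviations between same-numbered libraries were 0.0187, 0.153 and 0.26 for exosomes and supernatant, all positive but not all above 0.1.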
